A study of Homo sapiens with 3 samples.

Results

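The genes described here are 10 genes of Fc receptor, ITAM and ITIM signaling, chosen by UniProt accession from a table of 213543 features. They are the IgG receptors FCGR1A (P12314), FCGR2A (P12318) and FCGR2B (P31994), the adaptors FCER1G (P30273) and TYROBP (O43914), the neonatal Fc receptor FCGRT (P55899), the kinase SYK (P43405), and the inhibitory receptors LILRB4 (Q8NHJ6), SIRPA (P78324) and CD33 (P20138). Their counts were read in THP-1 cells, a human acute monocytic leukemia line that carries the MLL-AF9 fusion, as an untreated control (0 h) and after 8 h and 24 h with 0.2 µM GSK-LSD1, an inhibitor of the histone demethylase LSD1. Each time point is 1 RNA-seq library, and the untreated library has no later control, so time in culture and treatment cannot be told apart. In this system LSD1 inhibition is used to induce monocytic differentiation, and the comparisons ask how the transcripts of these receptors and of their signaling chain stood before and during it.

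Fc receptors bind the constant part of antibodies. Activating receptors pass the signal on through an ITAM, a cytoplasmic motif that Src-family kinases phosphorylate and that then recruits SYK, either in their own tail, as in FCGR2A, or through an adaptor such as FCER1G or TYROBP. Inhibitory receptors such as FCGR2B, LILRB4, SIRPA and CD33 carry ITIMs, which recruit the phosphatases SHP-1, SHP-2 or SHIP-1 and restrain the same chain. Monocytes and macrophages use these pairs to tune phagocytosis and cytokine release.

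The untreated library held 1475938 counts, the 8 h library 1310912 and the 24 h library 1444011. The limit that a count of 0 allows is 3 counts, or 1.95, 2.34 and 2.11 CPM (counts divided by the TMM-scaled library size) in the same order. All intervals given here are exact 95% counting intervals. They cover the counting error of reads only, because no time point was repeated and no molecular identifiers to count molecules with are described. Of 11 monocyte and myeloid markers, 6 reached 10 counts in a library, among them ELANE with 3037, 3180 and 3000 counts in the untreated, 8 h and 24 h libraries, the order used throughout. CSF1R and FCN1 were listed at 0, and CD14 had 0, 5 and 6 counts. Of 21 markers of T, NK, B, erythroid, megakaryocyte, epithelial and fibroblast cells, 20 had a row, 15 of these were at 0, none passed 4 counts, and they summed to 3, 8 and 5 counts in the 3 libraries.

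Of the 10 genes, 5 reached 10 counts in at least 1 library and were compared. These were SYK, SIRPA, FCGR2A, LILRB4 and FCGR1A. FCGR2B had at most 3 counts in a library, and FCER1G, TYROBP, FCGRT and CD33 were listed at 0 throughout. A 0 here describes the row and not the gene. GENCODE v44, an annotation of GRCh38, holds 46 protein-coding transcripts of the 10 genes, and 0 of them have a row under their own identifier. Their reads may stand under protein accessions, under overlapping rows or under none. A gene can have several accessions, and how reads shared by overlapping rows were counted is not stated. The same pattern was seen for genes that nearly every cell uses. B2M, the light chain of MHC class I and of the neonatal Fc receptor, had 10, 8 and 9 counts under its accession, and the small GTPase CDC42 had 1, 2 and 0. Levels are therefore compared within a gene between libraries, and not between genes.

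**Figure D1:**
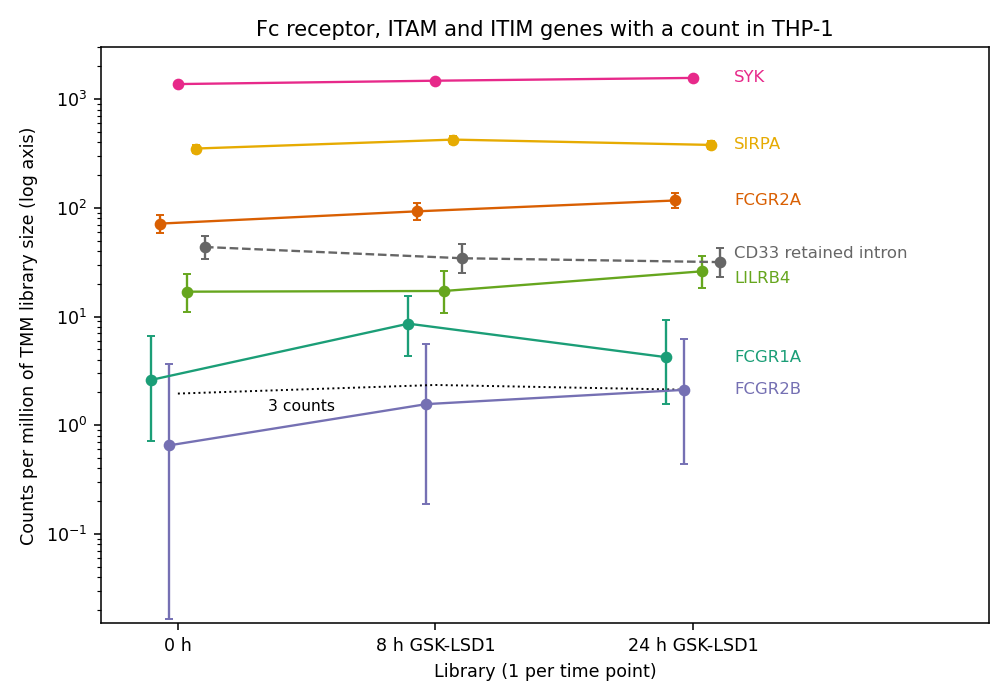
CPM on a log axis, for the 6 genes with a count under their accession and for the CD33 retained-intron transcript (dashed), in the library of each time point. Bars are exact 95% Poisson intervals, and the dotted line marks 3 counts. FCGR2A went from 71.6 to 116.9 CPM between 0 h and 24 h, while SYK lay between 1378 and 1570 CPM.

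Of the IgG receptors, FCGR2A stood higher in the 24 h library than in the untreated one beyond counting error, while FCGR1A and FCGR2B had at most 11 and 3 counts under their accessions. FCGR2A, the low-affinity receptor with an ITAM in its own tail, spans 161505430 to 161524013 on chromosome 1 (GRCh38, forward strand). Its counts were 110, 119 and 166. Scaled for library size these are 71.6, 92.9 and 116.9 CPM, so each treated library lay above the untreated one and the 24 h library was the highest. Its ratio at 24 h against 0 h was 1.63-fold (interval 1.28 to 2.10), a log2 ratio of 0.71 (0.35 to 1.07), above 0 beyond counting error. At 8 h the log2 ratio was 0.38 (-0.01 to 0.76), and from 8 h to 24 h it was 0.33 (-0.02 to 0.68), so both single steps included no change. Exons of 2 unnamed genes on the same strand cover 37.3% of the FCGR2A coding-transcript exon bases, and FCGR2A, FCGR2B and FCGR2C are close in sequence, so part of its count is uncertain.

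FCGR1A, the high-affinity receptor for monomeric IgG, lies on chromosome 1 from 149782671 to 149791675 and signals through FCER1G. It had 4, 11 and 6 counts. The 8 h library was the highest and the log2 ratio at 8 h against 0 h was 1.72, but its interval of -0.03 to 3.83 included no change, as did that at 24 h (0.70, interval -1.38 to 2.97). With the transcript rows of the gene added, the counts were 4, 12 and 6 and the log2 ratio at 8 h was 1.85 (0.13 to 3.94), so 1 count decides whether the interval includes no change. FCGR1A has near-identical copies on the same chromosome, which makes so low a count more uncertain. FCGR2B, the inhibitory IgG receptor, lies on chromosome 1 from 161663143 to 161678654 and had 1, 2 and 3 counts, too few for a ratio.

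The 250 bases upstream of RefSeq's start are shown for FCGR2A and SYK, the genes whose counting intervals at 24 h lay above no change. The sequences are RefSeq's on GRCh38.p14, forward strand, chr1:161505207-161505456 and chr9:90801350-90801599. Capitals mark GAGGAA on either strand, the core of many sites of PU.1, the myeloid transcription factor encoded by SPI1.
FCGR2A: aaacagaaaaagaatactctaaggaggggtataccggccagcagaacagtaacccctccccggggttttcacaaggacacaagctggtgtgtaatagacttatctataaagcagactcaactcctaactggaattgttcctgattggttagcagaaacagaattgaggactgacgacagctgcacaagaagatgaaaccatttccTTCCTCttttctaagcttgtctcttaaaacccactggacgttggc
SYK: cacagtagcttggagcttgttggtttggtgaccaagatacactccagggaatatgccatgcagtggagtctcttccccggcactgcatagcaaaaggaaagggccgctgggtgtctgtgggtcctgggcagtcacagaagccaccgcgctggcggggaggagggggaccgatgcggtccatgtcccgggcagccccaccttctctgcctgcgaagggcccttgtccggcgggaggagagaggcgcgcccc
The FCGR2A window holds the motif 1 time, on the reverse strand, and the SYK window 0 times. RefSeq's table had such a window for 9 of the 10 genes, and 5 of these hold the motif, against 23.6% of 35116 windows of the same length. The windows for FCGR1A, LILRB4, TYROBP and CD33 are the others with it. For some genes RefSeq's start is not the GENCODE gene start. The FCGR2B window ends at 161647242, ahead of the gene start at 161663143. The FCGRT and LILRB4 windows, from 49512411 and 54662735, lie inside their GENCODE spans. The difference in share was not tested. A match describes the letters only. SPI1 itself had 69, 87 and 102 counts. Its log2 ratio was 0.60 at 8 h (0.12 to 1.07) and 0.68 at 24 h (0.22 to 1.14).

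FCER1G, the common γ chain of Fc receptors, lies on chromosome 1 from 161215234 to 161220699. TYROBP, also known as DAP12, lies on the reverse strand of chromosome 19 from 35904401 to 35908295 and serves TREM receptors and other activating receptors. Both ITAM adaptors were listed at 0 in each library. FCGRT, which salvages IgG and albumin from degradation, lies on chromosome 19 from 49506816 to 49526428 and was listed at 0 as well. Rows named by transcripts of these genes added little. FCER1G transcripts had 0 counts in each library, TYROBP transcripts had 0, 1 and 0, and FCGRT transcripts had 4, 3 and 3. A change of the adaptors or of FCGRT was not detectable from these rows.

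SYK, the tyrosine kinase that binds phosphorylated ITAMs, lies on chromosome 9 from 90801787 to 90898549 and was the best-counted member. Its counts were 2117, 1895 and 2230, or 1378, 1480 and 1570 CPM. Its ratio at 24 h against 0 h was 1.14-fold (1.07 to 1.21), a log2 ratio of 0.19 (0.10 to 0.27). The difference was small, and the upper end of its interval lies far below a 2-fold change. At 8 h the log2 ratio was 0.10 (0.01 to 0.19), which depends on the library scaling. With total counts as library sizes it was 0.01 (-0.08 to 0.10), and the value at 24 h was 0.11 (0.02 to 0.19). From 8 h to 24 h it was 0.09 (-0.0037 to 0.17) with TMM and 0.10 (0.0063 to 0.18) with total counts, and the interval lay above 0 under each of the 3 other library sizes.

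Among the inhibitory receptors, SIRPA was the best counted. SIRPA, which binds CD47 and restrains phagocytosis, lies on chromosome 20 from 1894167 to 1940592 and had 540, 544 and 539 counts. These are 351.5, 424.9 and 379.5 CPM, with the 8 h library the highest. The log2 ratio was 0.27 at 8 h (0.10 to 0.45) and 0.11 at 24 h (-0.06 to 0.29). With the counts of accession rows as library sizes, the value at 8 h was 0.17 (-0.0037 to 0.35) and its interval included no change. Related SIRP genes are close in sequence, and SIRPB1 is described among the activating receptors.

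LILRB4, an inhibitory receptor of monocytes and monocytic leukemia cells, lies on chromosome 19 from 54643889 to 54670359 and had 26, 22 and 37 counts. At 8 h against 0 h the log2 ratio was 0.02, with a wide interval of -0.87 to 0.90. The 24 h library was the highest, with a log2 ratio of 0.62 against 0 h (-0.14 to 1.40) and of 0.60 against 8 h (-0.20 to 1.43), and both intervals included no change. With its transcript rows added, the log2 ratio was 0.26 at 8 h (-0.56 to 1.09) and 0.34 from 8 h to 24 h (-0.41 to 1.11). CD33, a sialic acid-binding receptor and a myeloid marker in leukemia, lies on chromosome 19 from 51225064 to 51243860. It was listed at 0 under its accession, but a retained-intron transcript, ENST00000598473, had 67, 44 and 45 counts. It was the only one of 29 transcript rows of the 10 genes with 10 or more counts in a library. Both treated libraries were lower than the untreated one, with log2 ratios of -0.34 (-0.93 to 0.23) and -0.46 (-1.04 to 0.11), and both intervals included no change. Its count does not measure the coding CD33 transcripts.

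**Figure D2:**
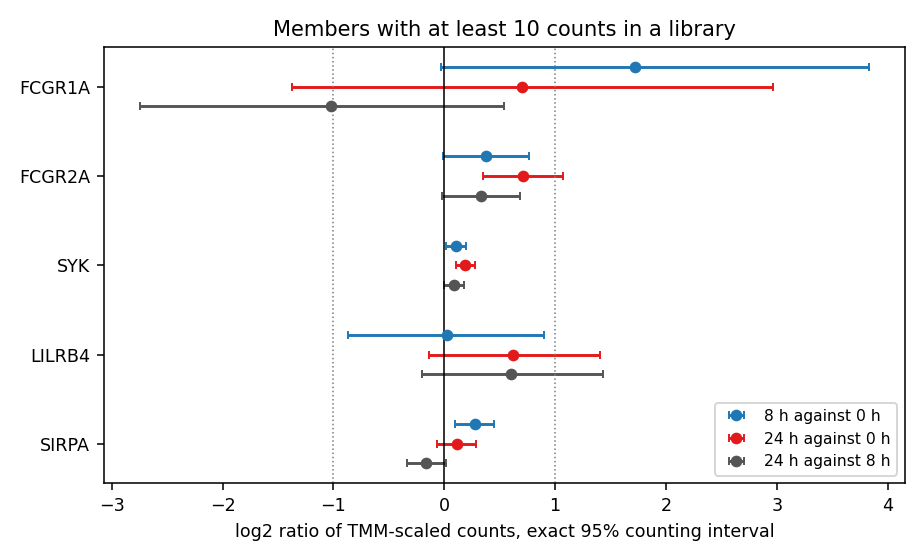
Log2 ratios of TMM-scaled counts for the 5 genes with at least 10 counts in a library, in each of the 3 comparisons. Points are ratios, bars are exact 95% counting intervals, and dotted lines mark a log2 ratio of 1 in either direction. At 24 h against 0 h the intervals of FCGR2A and SYK lie above 0.

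Of the 9609 features that reached 10 counts in any library, 4.51% were more than 1 higher and 6.02% more than 1 lower in log2 fold change at 8 h against 0 h, with a prior count of 2 added before taking logs. Of the 5 genes compared, 1 was past this threshold, FCGR1A, and 0 were lower. FCGR1A reached 10 counts only in the 8 h library, so the filter favoured this call, and its counting interval included no change. At 24 h against 0 h the shares of all features were 6.19% and 5.58%, and 0 of the 5 passed in either direction. At 24 h against 8 h they were 4.03% and 1.97%, and again 0 of the 5 passed. By the second rule, a counting interval wholly on 1 side of no change, 2 of the 5 were higher at 8 h (SYK and SIRPA) against 11.7% of all features, and 2 at 24 h (FCGR2A and SYK) against 13.0%. None was lower at either time, against 9.71% and 12.6% of all features. From 8 h to 24 h, 0 of 5 passed in either direction, against 4.87% higher and 5.58% lower. Passing this rule depends on the number of counts. At 8 h SYK passed at 1.07-fold, from 2117 and 1895 counts. FCGR1A did not at a log2 ratio of 1.72, from 4 and 11 counts. The shares of all features are not matched for counts. With total counts as library sizes, 1 of the 5 was higher at 8 h (SIRPA), against 8.22% of all features higher and 13.7% lower. The median log2 fold change of the 5 genes was 0.27 at 8 h and 0.49 at 24 h, beside -0.01 at both times for all features. The 24 h median is the value of FCGR1A, from 4 and 6 counts. The median at 24 h was 0.34 with a prior count of 5 and 0.19 over the 3 genes that reached 50 counts.

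The rest of the chain was read from 83 further genes, 82 of which had a row under the accession used. Of these 82, 39 reached 10 counts in a library, 18 had fewer and 25 were at 0. At 8 h, 2 of the 39 were past the threshold of 1 upward and 2 downward, against 4.51% and 6.02% of all features. At 24 h, 2 were past it upward and 1 downward, against 6.19% and 5.58%. Their median log2 fold change was -0.06 at 8 h and 0.03 at 24 h. By the counting interval, 8 were higher and 5 lower at 8 h, against 11.7% and 9.71% of all features. At 24 h, 7 were higher and 2 lower, against 13.0% and 12.6%. From 8 h to 24 h, 7 were higher and 2 lower, against 4.87% and 5.58%. These shares of all features are not matched for counts. With total counts as library sizes, 4 were higher and 6 lower at 8 h, against 8.22% and 13.7%, and 7 were higher and 4 lower at 24 h, against 10.4% and 16.7%.

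**Figure D3:**
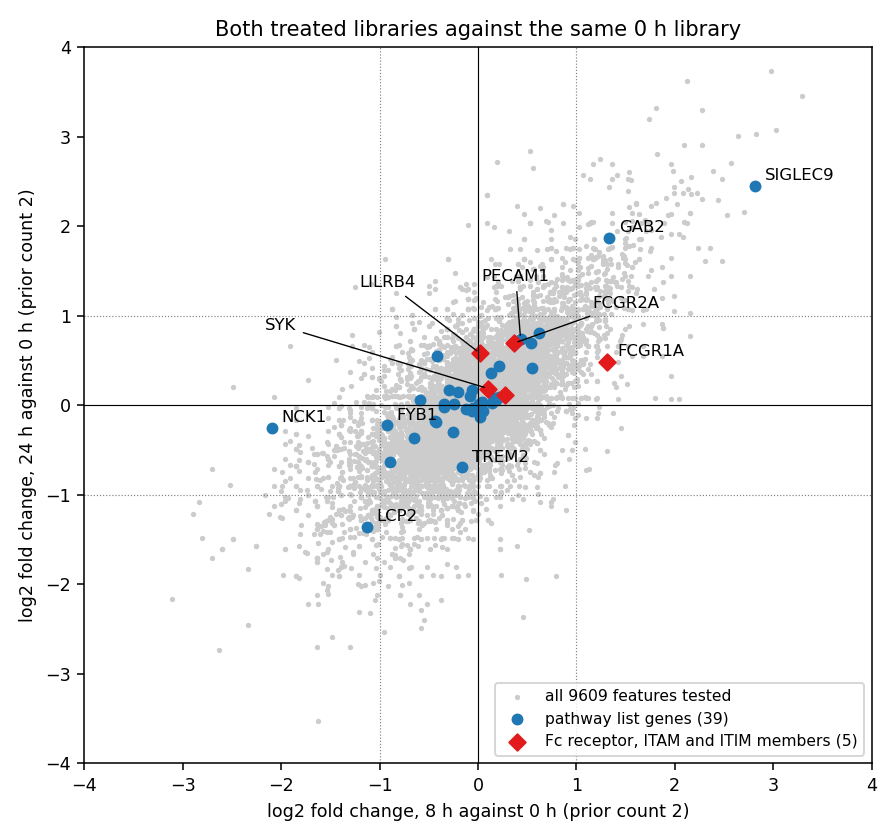
Log2 fold changes with a prior count of 2 at 8 h (x axis) and 24 h (y axis) against 0 h, for the 9609 features tested (grey), 39 pathway genes (blue) and 5 members (red), with dotted lines at 1 and -1. Both axes share the 0 h library, so a slope is built into the plot, and 4 features lie outside its axes. GAB2 and SIGLEC9 stand past the threshold on both axes, LCP2 below it on both, and 4 of the 5 members lie within 1 of 0 on both axes.

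Rows of other Fc receptors were at or near 0, which describes the rows and not the genes. FCAR, the IgA receptor, had 1, 0 and 2 counts, FCGR3A, FCGR3B, FCGR1B, FCER1A and FCER2 were listed at 0, and FCGR2C had no row. Among activating receptors and adaptors that pair with ITAM or related signaling, 4 of 9 reached 10 counts and 0 passed the threshold of 1. HCST, also known as DAP10, an adaptor encoded next to TYROBP, had 43, 56 and 71 counts. Its log2 ratio was 0.64 at 8 h (0.04 to 1.25) and 0.84 at 24 h (0.27 to 1.42). With total counts as library sizes its interval at 8 h included no change. TREM2, a lipid-sensing receptor that signals through TYROBP, went the other way, with 297, 221 and 169 counts. Its log2 ratio was -0.16 at 8 h (-0.42 to 0.09) and -0.70 at 24 h (-0.98 to -0.42), and from 8 h to 24 h it was -0.54 (-0.83 to -0.24). SIRPB1, the activating relative of SIRPA, had 43, 37 and 41 counts and log2 ratios of 0.05 and 0.04, with intervals that included no change.

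Of 17 other ITIM receptors, 6 reached 10 counts, and 1 of them was past the threshold at both times. SIGLEC9, a relative of CD33, had 0, 11 and 9 counts. Against 3 counts, the limit that a count of 0 allows, it was at least 4.40-fold higher at 8 h and at least 3.25-fold higher at 24 h before the counting error of its own 11 and 9 counts. Its exact intervals, which include that error, had lower ends of 1.59 and 1.09 on the log2 scale. SIGLEC9 entered the comparison only through its 8 h count, so the filter favoured a higher call. PECAM1, an adhesion molecule with an ITIM, had 1270, 1430 and 1962 counts. Its log2 ratio was 0.43 at 8 h (0.32 to 0.54), 0.74 at 24 h (0.64 to 0.84) and 0.31 from 8 h to 24 h (0.21 to 0.41), so the 3 libraries stood apart beyond counting error. LAIR1, a collagen receptor, had 36, 35 and 46 counts, and CD300LF had 30, 16 and 29, with intervals that included no change at both times. The row of CD47, the ligand of SIRPA, had 1, 0 and 1 counts, which likewise does not give the level of the gene.

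Of 8 kinases of the Src family and their regulator CSK, 3 reached 10 counts. LYN, which phosphorylates ITAMs and ITIMs in myeloid cells, had 466, 568 and 578 counts and was higher in both treated libraries, with log2 ratios of 0.55 (0.37 to 0.73) and 0.42 (0.25 to 0.60). CSK, which inactivates Src-family kinases, had 181, 145 and 160 counts and log2 ratios of -0.06 at both times. FGR had 28, 20 and 29 counts. Both of these kinases had intervals that included no change.

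Downstream of SYK, 20 of 30 genes reached 10 counts, and the differences ran in both directions. GAB2, a scaffold that binds PI3-kinase and SHP-2, had 234, 495 and 797 counts. Each library stood above the one before it, by log2 ratios of 1.34 (1.12 to 1.57) at 8 h against 0 h and 0.54 (0.37 to 0.70) from 8 h to 24 h, and the ratio at 24 h against 0 h was 3.68-fold, a log2 ratio of 1.88 (1.67 to 2.10). LCP2, also known as SLP-76, an adaptor phosphorylated by SYK, had 34, 12 and 11 counts and was lower in both treated libraries, with log2 ratios of -1.24 (-2.32 to -0.25) and -1.51 (-2.64 to -0.50). NCK1, an adaptor to the actin cytoskeleton, had 43, 7 and 33 counts, so the 8 h library alone was low. Its log2 ratio was -2.36 at 8 h (-3.75 to -1.19), -0.27 at 24 h (-0.97 to 0.42) and 2.09 from 8 h to 24 h (0.89 to 3.51).

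The 3 best-counted genes of this group differed less. GRB2 had 1424, 1349 and 1367 counts, CBL, a ubiquitin ligase that ends receptor signaling, had 1026, 861 and 955, and the small GTPase RAC1 had 869, 838 and 860. Their log2 ratios lay between 0.01 and 0.21 at 8 h and between 0.01 and 0.10 at 24 h. At 8 h the intervals of GRB2 (0.18, interval 0.08 to 0.29) and RAC1 (0.21, interval 0.07 to 0.35) lay above 0, and with total counts as library sizes both included no change. Between 8 h and 24 h GRB2 was lower, by a log2 ratio of -0.13 (-0.24 to -0.02). RAC2, a GTPase of blood cells, was singled out after its values were seen. It had 655, 597 and 779 counts and a log2 ratio of 0.36 at 24 h (0.21 to 0.52), and of 0.23 between 8 h and 24 h (0.08 to 0.39). The remaining genes with counting intervals below 0 at 8 h were VAV3, SH3BP2 and FYB1, singled out after their values were seen. FYB1, which binds LCP2, had 109, 47 and 86 counts. Its log2 ratio was -0.95 at 8 h (-1.48 to -0.44) and -0.23 at 24 h (-0.65 to 0.19). None of these 3 had an interval below 0 at 24 h.

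**Figure D4:**
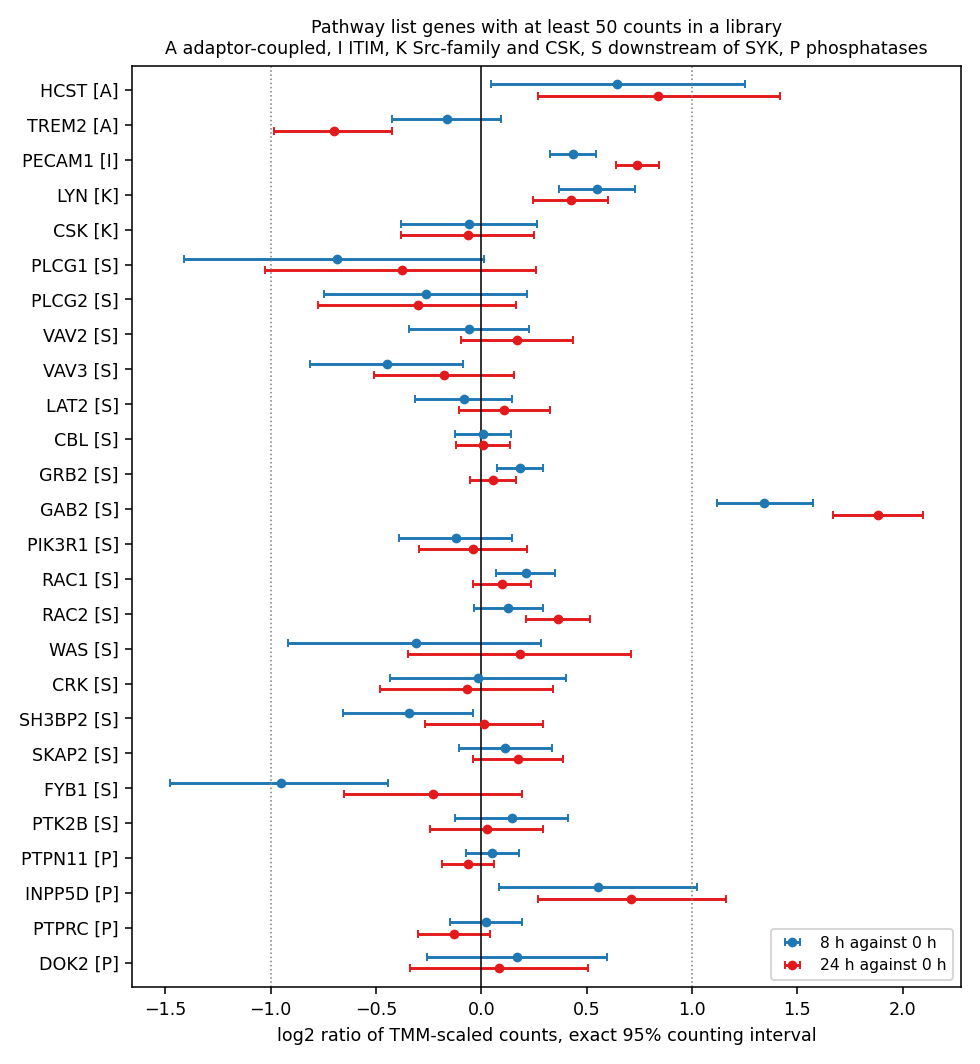
Log2 ratios of TMM-scaled counts at 8 h (blue) and 24 h (red) against 0 h for the 26 pathway genes with at least 50 counts in a library, with exact 95% counting intervals and dotted lines at 1 and -1. Letters give the list of each gene. GAB2, at 1.34 and 1.88, is the only gene shown with both intervals above 1, while CBL and PTPN11 lie close to 0.

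In the list of phosphatases and inhibitory adaptors, 5 of 10 genes reached 10 counts and 0 passed the threshold of 1. PTPN11, which encodes SHP-2, had 1125, 972 and 996 counts, with log2 ratios of 0.05 (-0.07 to 0.18) and -0.06 (-0.19 to 0.06). PTPRC, which encodes CD45, had 617, 522 and 521 counts, with log2 ratios of 0.02 and -0.13. With total counts as library sizes, the 24 h intervals of PTPN11 (-0.14, interval -0.27 to -0.02) and PTPRC (-0.21, interval -0.38 to -0.04) lay below 0. DOK2 had 97, 91 and 95 counts. PTPN6, which encodes SHP-1, had 0, 2 and 0 counts under its accession.

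Taking both treated libraries together, the pathway gene with log2 fold changes nearest to those of FCGR2A, among 26 with at least 50 counts in a library, was PECAM1, at a distance of 0.08 on the log2 scale. INPP5D was next, at 0.17. INPP5D, which encodes SHIP-1, the phosphatase that FCGR2B recruits, had 72, 88 and 109 counts and log2 ratios of 0.55 (0.09 to 1.02) and 0.71 (0.27 to 1.16), the first of which included no change with total counts as library sizes. SYK was nearest to SKAP2, at 0.02, and SIRPA to RAC1, at 0.06. These distances rest on 3 libraries and on a shared 0 h library. They are small beside the counting intervals, such as -0.01 to 0.76 for FCGR2A at 8 h. Which gene is nearest is therefore not resolved.

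Monocyte and myeloid markers also differed between the libraries. The 11 markers summed to 3884, 4172 and 5251 counts, and most of the difference between 0 h and 24 h lay in LYZ. ITGAM, the αM integrin chain, had 87, 120 and 339 counts, and its log2 ratio at 24 h was 2.08 (1.73 to 2.43). LYZ, lysozyme, had 655, 747 and 1773 counts, and its log2 ratio at 24 h was 1.55 (1.42 to 1.68). The granule genes ELANE, MPO, AZU1 and PRTN3 had lower ratios at 24 h than ITGAM and LYZ. For ELANE, neutrophil elastase, the log2 ratio at 8 h was 0.33 (0.26 to 0.40), at 24 h it was 0.10 (0.02 to 0.17), and between 8 h and 24 h it was -0.23 (-0.31 to -0.16). MPO had 17, 18 and 18 counts, AZU1 14, 9 and 9, and PRTN3 5, 4 and 2. In the same order, their log2 ratios at 24 h were 0.20 (-0.84 to 1.24), -0.52 (-1.91 to 0.79) and -1.21 (-4.60 to 1.40). Each of these intervals included no change. The log2 ratio of FCGR2A at 24 h was 0.71 beside these markers, and their part in it was not tested. In bulk RNA, more cells of a kind and more RNA per cell cannot be told apart.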

How the data were processed

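RNA-seq libraries, 1 per time point, were made from ribosome-depleted total RNA of untreated THP-1 cells and of cells treated with GSK-LSD1 for 8 h or 24 h. Per the labels and the methods, the authors used fastp and STAR in the Seq2science pipeline with hg38 and deposited raw counts of reads per feature. The counting tool, annotation, strand setting and treatment of shared reads are not given in the sources used here.

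Columns were assigned to samples by name. The table holds no gene names. Accessions of the 10 genes were given, and those of 83 pathway genes and 32 markers are UniProt primary accessions listed from general knowledge. Members and lists were chosen with earlier results of these data known. The genes named were the 10 members, pathway genes past the fold threshold with a counting interval off 0, up to 3 best-counted genes per list, the 2 pathway genes nearest to each member that reached 50 counts, and a few singled out as stated.

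Library sizes were scaled by TMM (edgeR 4.0.16, R 4.3.3) over features that reached 10 counts in any library. Fold changes used a prior count of 2. Ratios used none, with exact (Clopper-Pearson) 95% intervals conditional on the sum of both counts. Intervals of single levels are exact Poisson intervals. No p-value was computed. The steps were tested on simulated Poisson counts with large changes planted only in well-counted features. Small changes, changes in poorly counted features and variation between repeated libraries were not part of that test. Alternatives were library sizes from DESeq2 1.42.0 or from totals, and changed prior counts, filters and thresholds. Transcripts were named from GENCODE v44 (GRCh38), and promoter windows came from RefSeq (GRCh38.p14). Remaining steps ran in Python 3.11.15 with scipy 1.17.1.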

Additional observations from a re-analysis of the deposited data

How the results depend on the processing

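With 5 members compared, counts past a threshold rest on single genes. For members higher at 8 h, the count of 1 became 0 with a prior count of 5, with at least 50 counts in a library or with a threshold of 2, and 2 by the counting interval. For members higher at 24 h, the count of 0 became 2 by the counting interval. Their median log2 fold change of 0.27 at 8 h was 0.17 with library sizes from accession rows, and that of 0.49 at 24 h was 0.61 and 0.34 with prior counts of 0.5 and 5 and 0.19 with at least 50 counts, where 3 genes were left. The log2 ratio of SYK at 8 h was 0.011 with total counts and 0.00024 with accession rows, and at 24 h 0.10 with accession rows. These 3 were the values outside their intervals among 60 alternatives for 15 member ratios, and 0 reversed. Total counts and accession rows lowered each ratio against 0 h by 0.08 to 0.10. The interval rule under other library sizes was added after the data were seen. It gave 1 and 0 members higher at 8 h in place of 2 with total counts and accession rows, against 8.22% and 7.86% of all features. At 24 h against 8 h it gave 1 in place of 0 (SYK) with each other library size, against 4.95% to 5.19%. With either total the interval rule gave 4 pathway genes higher at 8 h in place of 8, against the same 8.22% and 7.86%. It gave 4 lower at 24 h in place of 2, against 16.7% and 17.0%.

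For pathway genes, the counts higher and lower were 2 and 2 at 8 h, 2 and 1 at 24 h, and 1 and 0 at 24 h against 8 h. With a minimum of 50 counts they were 1 and 0, 1 and 0, and 0 and 0. With a threshold of 2 they were 1 and 1, 1 and 0, and 0 and 0. By the counting interval they were 8 and 5, 7 and 2, and 7 and 2. The shares of all features by that rule were 11.7% and 9.71%, 13.0% and 12.6%, and 4.87% and 5.58%. Shares of all features under the other filters, thresholds and prior counts are not given here, so those counts describe the listed genes only. Without a filter, 4 were higher at 8 h, 2 lower at 24 h and 4 lower at 24 h against 8 h. A prior count of 5 left 1 lower at 8 h, and one of 0.5 gave 2 higher at 24 h against 8 h. The median at 8 h was -0.16 with accession rows, and that at 24 h against 8 h, 0.19, was 0.058 without a filter and 0.070 under the minimum of 50 counts. The minimum of 50 counts left 26 pathway genes in place of 39. Why values moved under this or any other setting was not tested. No paired analysis was possible because each time point has 1 library, and no library could be left out for the same reason.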
